A study of Homo sapiens with 4 samples.

Results

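The comparison described is the array of MCF10A cells labelled mutant PIK3CA against the array of MCF10A cells labelled LacZ, which are 2 of the 4 arrays measured. MCF10A is a non-tumorigenic human breast epithelial line. The 4 stable transfections were PIK3CA-H1047R (called mutant PIK3CA here), Her2 and PIK3CA-H1047R together, Her2 alone, and LacZ, a bacterial enzyme gene used as the control. All cells grew untreated in SFIHE medium, and 400 ng of total RNA from each was labelled for 1 Affymetrix array. Whether each transfected line was a clone or a pool, and which promoter drove each introduced gene, are not stated in the labels. With 1 array per label no difference has a replicate check, so no SD, no standard error and no test is given. All values below are deposited log2 levels, and a difference is the value on the array labelled mutant PIK3CA minus the value on the LacZ array, so that 1 unit is 2-fold. A gene was counted when its probe set carried 1 gene symbol and reached a log2 level of 5 on at least 1 of the 4 arrays, which held for 4312 of 20906 measured genes. The stated purpose of the study was to find genes downstream of mutant PIK3CA, of Her2 and of the pair.

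PIK3CA encodes the catalytic subunit of a lipid kinase that acts below growth factor receptors such as ERBB2 (Her2). Its lipid product recruits the kinase AKT to the membrane, and AKT in turn feeds the mTOR complexes and keeps FOXO transcription factors out of the nucleus. The H1047R variant lies in the kinase domain, is frequent in breast tumours and raises lipid kinase activity. MCF10A cells are of basal mammary type, so laminins, hemidesmosomal integrins and basal keratins belong to their ordinary repertoire.

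The introduced genes were read first because they check the labels. No probe set is named for PIK3CA alone, and PIK3CA was not analysed here. The probe set that reads ERBB2 is also annotated to MIR4728, a microRNA gene inside it. It read 8.48 on the array labelled mutant PIK3CA, 7.39 on the array labelled with both genes, 4.29 on the array labelled Her2 and 5.96 on the LacZ array. It was thus highest on the array whose label names no Her2, by 2.52 log2 units over LacZ, and lowest on the array labelled Her2. This goes against the labels, so each array is called by its label, and every direction below belongs to the array labelled mutant PIK3CA. In what follows, "with mutant PIK3CA", "with both", "with Her2" and "with LacZ" name the arrays so labelled.

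The nearest counted genes on chromosome 17 did not share the high ERBB2 value. Of the 8 on each side, 15 of 16 had a difference below 0, with a median of -0.71. Low values were not particular to these neighbours, because 85.5% of the 303 counted genes of chromosome 17 lay below 0. RPL19, a ribosomal protein gene, read 8.29 with mutant PIK3CA and 9.27 with LacZ. GRB7, an adaptor protein that lies close to ERBB2 and is often amplified with it, read 4.33 with mutant PIK3CA and 5.28 with LacZ. STARD3, a cholesterol-binding protein of late endosomes, read 4.21 with mutant PIK3CA and 5.10 with LacZ. FBXL20, a subunit of a ubiquitin ligase, was the 1 neighbour lower by at least 2-fold (-1.10). CDC6, which licenses replication origins, was the 1 neighbour above 0 (1.01), though after quantile normalization it differed by -0.02.

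The markers of the cell type fitted an epithelial line on both arrays. Of 7 basal markers measured, 6 reached 5 with mutant PIK3CA and 6 with LacZ, KRT14 being the exception on both (2.24 with mutant PIK3CA and 1.47 with LacZ). The adhesion protein CDH1 read 9.13 with mutant PIK3CA and 9.34 with LacZ, and EPCAM read 7.78 with mutant PIK3CA and 7.94 with LacZ. None of the 8 luminal and none of the 6 fibroblast markers measured in these short sets reached 5 on either array. A longer luminal list of 20 measured genes had 5 counted, with 0 at least 2-fold apart either way and a median of -0.04. Over all counted genes 11.2% were 2-fold apart, and 5 members are too few to set against that share. Of the 5, the mucin MUC1 read 7.48 with mutant PIK3CA and 7.83 with LacZ. CD24, a surface glycoprotein, read 7.42 with mutant PIK3CA and 7.01 with LacZ. The 6 fibroblast markers ran from 0.52 to 2.10 with mutant PIK3CA and from 0.73 to 2.24 with LacZ. A longer fibroblast list added FAP, a surface protease of activated fibroblasts, at 4.71 with mutant PIK3CA and 4.34 with LacZ, and DPT, a matrix protein, at 3.69 with mutant PIK3CA and 3.41 with LacZ. Among 4 leukocyte markers, PTPRC, which marks all leukocytes, read 0.93 with mutant PIK3CA and 0.54 with LacZ. CD68, a lysosomal protein that is not confined to leukocytes, read 6.24 with mutant PIK3CA and 4.68 with LacZ. The other leukocyte markers lay below LacZ, CD14 at 2.14 against 2.95 and CD3D at 1.07 against 1.29. KDR, a receptor of endothelial cells, read 2.03 with mutant PIK3CA and 3.83 with LacZ. The endothelial markers VWF and CDH5 differed by 0.03 and -0.10.

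Across the counted genes, 305 (7.07%) lay 2-fold or more above LacZ on the array labelled mutant PIK3CA and 176 (4.08%) lay 2-fold or more below it, which is 11.2% in all. The higher genes made up 63.4% of these calls. That split depends on scaling, because it was 49.9% after quantile normalization of the counted genes and 52.6% after cyclic loess. Against the same LacZ array, 13.8% were higher and 11.1% lower on the array labelled with both, and 2.95% and 2.57% on the array labelled Her2. The median difference was 0.07, and the central quartiles ran from -0.31 to 0.45. The upper tail was the longer, with 53 genes 4-fold or more above LacZ and 10 as far below, and 19 against 4 at 8-fold. The filter itself fixed some directions, because 135 counted genes reached 5 on the array labelled mutant PIK3CA alone, 49 of them at least 2-fold higher than LacZ, and 140 on the LacZ array alone, 32 of them as much lower. Many of the higher genes were low on the LacZ array: 30 of the 305 lay below 2 there and 104 at 5 or more. Of the 2990 genes that reached 5 on both arrays, 104 (3.48%) were higher and 75 (2.51%) lower. The scatter of both arrays shows these genes around the diagonal.

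**Figure D1:**
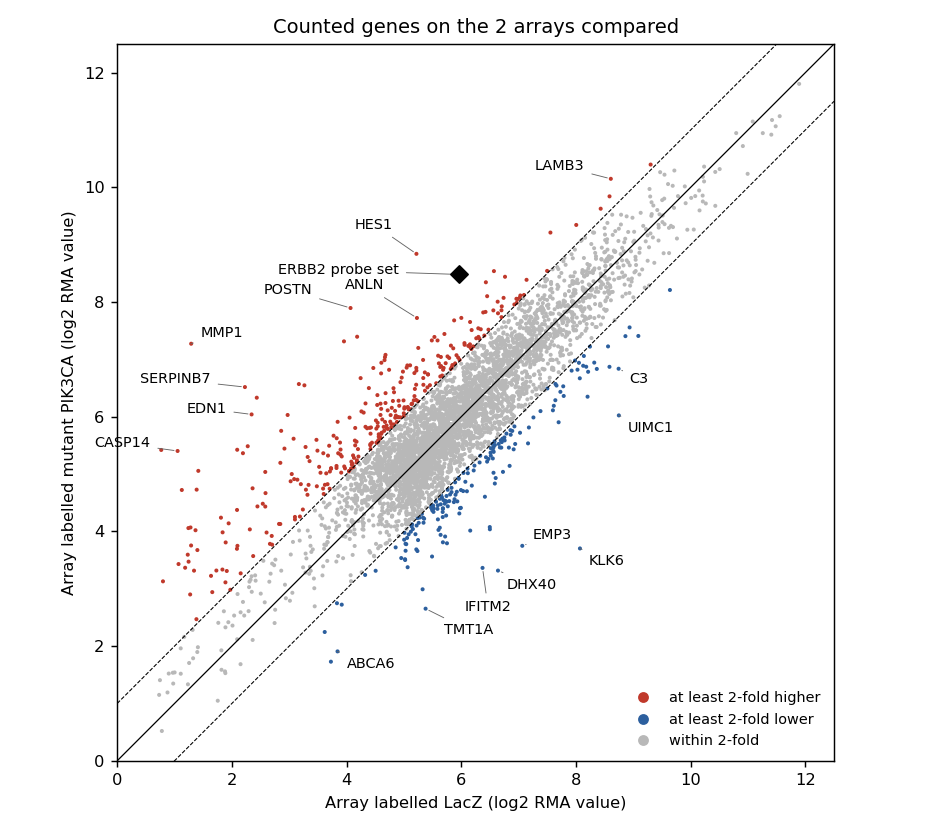
Log2 level of each of the 4312 counted genes on the array labelled mutant PIK3CA (vertical axis) against the LacZ array (horizontal axis). The solid line marks equal values and the dashed lines 2-fold. The 305 red genes lie above the upper dashed line, the 176 blue genes below the lower one, and the black diamond is the ERBB2 probe set at 8.48 with mutant PIK3CA against 5.96 with LacZ.

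MMP1, interstitial collagenase, had the highest difference of all counted genes. It read 7.27 on the array labelled mutant PIK3CA, 2.04 on the array labelled with both, 0.87 on the array labelled Her2 and 1.29 on the LacZ array. The difference from LacZ was 5.98, and the gap to the next array was 5.23, the widest of any counted gene. HES1, a transcriptional repressor and classical Notch target, read 8.84 with mutant PIK3CA, against 4.55 with both, 5.27 with Her2 and 5.22 with LacZ. Its high value was thus found on 1 array only. ATF3, a stress-induced transcription factor, likewise read 5.49 with mutant PIK3CA, against 1.91 with both, 2.44 with Her2 and 2.28 with LacZ. EDN1, the precursor of the peptide endothelin, read 6.04 with mutant PIK3CA, against 3.83 with both, 2.24 with Her2 and 2.34 with LacZ. TCN1, a vitamin B12-binding protein, read 5.04 on the array labelled mutant PIK3CA and at most 2.58 elsewhere.

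Other genes high against LacZ were also high on a further array. POSTN, the matrix protein periostin, read 7.90 on the array labelled mutant PIK3CA, 8.62 with both, 9.19 with Her2 and 4.07 with LacZ, so that the LacZ array was the low one. SERPINB7, a clade B serpin of stratified epithelia, read 6.52 with mutant PIK3CA, 5.60 with both, 3.05 with Her2 and 2.23 with LacZ. CCN1, a matricellular protein, read 6.55 with mutant PIK3CA, 6.29 with both, 3.78 with Her2 and 3.26 with LacZ. These last genes were high on the arrays whose labels name mutant PIK3CA. The same arrays read highest for ERBB2 (8.48 with mutant PIK3CA and 7.39 with both), and what the pattern goes with was not tested. CLCA2, a surface protein of basal epithelium, followed the same order, at 7.40 with mutant PIK3CA, 6.65 with both, 4.25 with Her2 and 4.18 with LacZ. PLD5, a phospholipase D family member, differed from LacZ by 3.90 and TIMP3, an inhibitor of metalloproteinases, by 3.40.

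At the low end, KLK6, a secreted kallikrein protease, read 3.70 on the array labelled mutant PIK3CA, 2.71 with both, 5.25 with Her2 and 8.07 with LacZ, a difference of -4.37 that was the lowest of all counted genes. IFITM2, an interferon-inducible membrane protein that restricts virus entry, read 3.36 with mutant PIK3CA, against 5.53 with both, 6.08 with Her2 and 6.37 with LacZ. EMP3, an epithelial membrane protein, read 3.75 with mutant PIK3CA, 4.59 with both, 6.80 with Her2 and 7.06 with LacZ. IFITM2 was therefore low on 1 array, and EMP3 on both arrays whose labels name mutant PIK3CA, which also read highest for ERBB2. TMT1A, a methyltransferase of lipid droplets, read 2.65 with mutant PIK3CA, against 6.29 with both, 6.18 with Her2 and 5.38 with LacZ. SCPEP1, a serine carboxypeptidase, read 2.99 with mutant PIK3CA, against 5.30 with both, 5.61 with Her2 and 5.33 with LacZ. ARRDC3, an arrestin-domain protein that directs membrane receptors to degradation, read 4.01 with mutant PIK3CA, against 5.67 with both, 6.56 with Her2 and 6.16 with LacZ.

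UIMC1, a ubiquitin-binding subunit of the BRCA1-A repair complex, differed by -2.72, but a second probe set of the gene differed by only -0.21, so the 2 probe sets disagreed in size. DHX40, a helicase, differed by -3.32, UNC5B, a netrin receptor, by -2.46, and PADI2, which converts arginine to citrulline in proteins, by -2.42. HOXB9, a homeobox transcription factor, read 3.79 with mutant PIK3CA and 5.75 with LacZ. Complement C3 read 6.84 with mutant PIK3CA and 8.74 with LacZ, and GRN, the growth factor precursor granulin, read 7.41 with mutant PIK3CA and 9.09 with LacZ. Both stayed above 5 on the 2 arrays.

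Of all counted genes, 61 lay at least 1 log2 unit above each of the other 3 arrays on the array labelled mutant PIK3CA and 28 lay at least 1 below. The plot of the genes standing farthest apart shows the 8 most extreme in each direction. BMP6, a bone morphogenetic protein, read 5.75 with mutant PIK3CA, against 1.29 with both, 3.02 with Her2 and 2.86 with LacZ. ANO1, a calcium-activated chloride channel, read 5.60 with mutant PIK3CA, against 2.20 with both, 2.40 with Her2 and 3.48 with LacZ. A2ML1, a protease inhibitor of stratified epithelium, read 6.67 and was between 3.43 and 4.25 on the other arrays. ABCA6, a lipid transporter family member, was lowest here at 1.91 and highest with Her2 at 6.75. PEG10, a gene derived from a retrotransposon, read 4.03 with mutant PIK3CA, against 5.80 with both, 5.74 with Her2 and 5.60 with LacZ. BLMH, the bleomycin hydrolase, read 3.38 with mutant PIK3CA, against 4.84 with both, 5.22 with Her2 and 5.06 with LacZ.

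**Figure D2:**
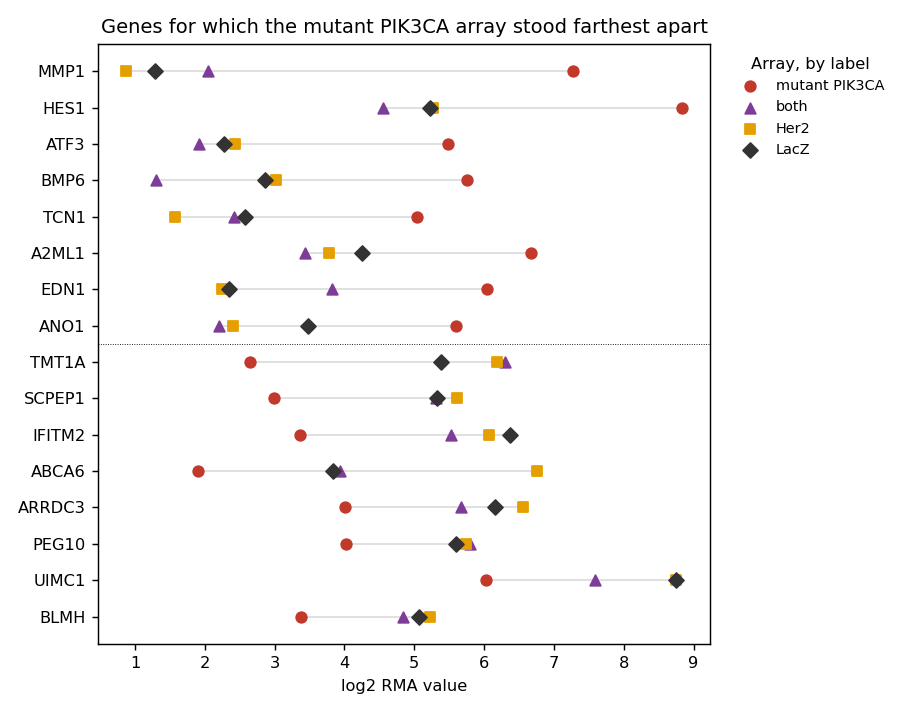
Log2 level on each array (horizontal axis) of the 8 counted genes most above, and below the dotted line the 8 most below, all 3 other arrays on the array labelled mutant PIK3CA. Red circles are the array labelled mutant PIK3CA, triangles both, squares Her2 and diamonds LacZ. MMP1 stands 5.23 above the next array and TMT1A 2.73 below it.

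Genes of mitosis held the most calls of any list. Of 88 genes in the list 86 were measured and 64 counted, and 46 of the 64 were higher by at least 2-fold, and 0 were lower, on the array labelled mutant PIK3CA than on the LacZ array, beside 7.07% and 4.08% of all counted genes. Their median difference was 1.66, against 0.07 over all counted genes. Levels were low on both arrays, their median level being 4.17 with mutant PIK3CA and 2.47 with LacZ, and only 17 of the 64 reached 5 on either. The others were counted because they reached 5 on another array, and without the level filter 48 of the 86 measured members were at least 2-fold higher, 0 lower, and the median was 1.26. A larger share of dividing cells and more of these RNAs per cell cannot be told apart in bulk RNA.

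Spindle, centromere and cytokinesis genes led this list. BUB1, a kinase of the spindle checkpoint, read 4.73 on the array labelled mutant PIK3CA, 6.29 with both, 2.05 with Her2 and 1.39 with LacZ. CENPF, a kinetochore protein, read 5.36 with mutant PIK3CA, 7.51 with both, 3.06 with Her2 and 2.19 with LacZ. HMMR, a spindle and hyaluronan-binding protein, read 5.42 with mutant PIK3CA, 6.81 with both, 2.69 with Her2 and 2.09 with LacZ. In each of these the array labelled mutant PIK3CA was second to the array labelled with both and above the others. ASPM, a spindle pole protein, differed from LacZ by 3.60, KIF14, a kinesin of cytokinesis, by 2.82 and CENPE, a kinetochore motor, by 2.79. The proliferation marker MKI67 read 6.76 on the array labelled mutant PIK3CA, 8.56 with both, 3.39 with Her2 and 4.60 with LacZ. ANLN, a scaffold of the contractile ring, read 7.72 with mutant PIK3CA, 9.13 with both, 4.26 with Her2 and 5.23 with LacZ, and was the mitotic gene with the highest levels among those called. Of the members above 5 on both arrays, TPX2, which activates the kinase AURKA at the spindle, differed by 1.24, while BUB3 differed by 0.73, the phosphatase CDC25B by 0.47 and CKAP5, a microtubule polymerase, by 0.09.

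Genes of DNA replication differed less. Of the 28 counted S phase genes, 4 passed 2-fold upward, 0 downward, and the median difference was 0.25, beside backgrounds of 7.07% and 4.08%. Those 4 were RRM2, the small subunit of ribonucleotide reductase (1.20), ATAD2, a chromatin ATPase (1.15), DTL, a substrate adaptor that marks licensing factors for degradation (1.12), and CDC6 (1.01). PCNA, the sliding clamp, read 7.06 on the array labelled mutant PIK3CA, 8.58 with both, 6.66 with Her2 and 6.78 with LacZ. The helicase subunit MCM3 read 4.41 with mutant PIK3CA, 6.33 with both, 4.79 with Her2 and 4.84 with LacZ. On the array labelled with both, the counted replication genes had a median difference from LacZ of 2.74 and the mitotic genes one of 3.86. The filter shaped these medians, because members that reached 5 on that array alone were counted through it. RRM2, ATAD2, DTL and CDC6 were all among such members, and read under 5 on both arrays compared here. Against the same LacZ array, the array labelled Her2 had medians of -0.03 for S phase and -0.04 for mitosis. The plot of both lists by array shows these levels.

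**Figure D3:**
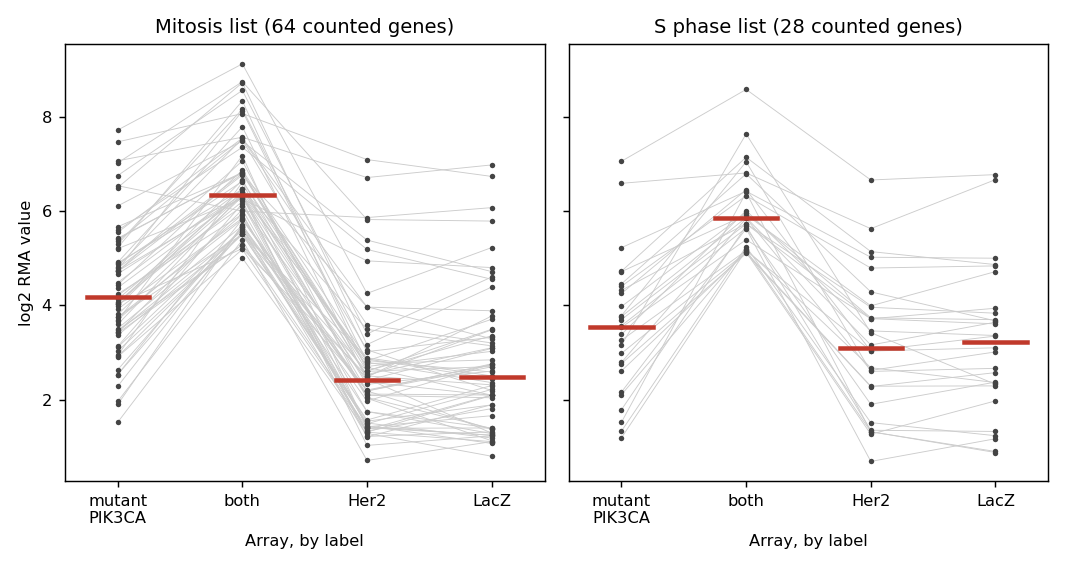
Log2 level of each counted gene of the mitosis list (left, 64 genes) and the S phase list (right, 28 genes) on the 4 arrays, with grey lines joining a gene and red bars at the medians. Mitotic genes had medians of 4.17 with mutant PIK3CA and 2.47 with LacZ, and S phase genes had 3.55 with mutant PIK3CA and 3.22 with LacZ.

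The promoters of the mitosis list were read because its members moved together, and those of the S phase list were read beside them. Sequences are those of RefSeq, assembly GRCh38.p14, from 250 bases before to 50 after each gene's start. The letters searched on both strands were TTTGAA or TTCGAA (the CHR element of late cell cycle genes), CCAAT (the box bound by NF-Y) and TTTCCCGC or TTTGGCGC (an E2F site). The 4 promoters below belong to the mitotic genes with the highest differences, and capitals mark CHR and CCAAT letters on either strand, each promoter being printed in its gene's own direction.
ASPM (chr1:197146620-197146919, minus strand): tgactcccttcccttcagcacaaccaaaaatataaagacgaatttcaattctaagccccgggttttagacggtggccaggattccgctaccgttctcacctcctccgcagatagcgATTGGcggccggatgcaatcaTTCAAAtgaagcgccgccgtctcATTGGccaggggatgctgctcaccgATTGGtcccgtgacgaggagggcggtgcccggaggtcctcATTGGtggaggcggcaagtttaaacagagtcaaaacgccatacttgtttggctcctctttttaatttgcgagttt
BUB1 (chr2:110678014-110678313, minus strand): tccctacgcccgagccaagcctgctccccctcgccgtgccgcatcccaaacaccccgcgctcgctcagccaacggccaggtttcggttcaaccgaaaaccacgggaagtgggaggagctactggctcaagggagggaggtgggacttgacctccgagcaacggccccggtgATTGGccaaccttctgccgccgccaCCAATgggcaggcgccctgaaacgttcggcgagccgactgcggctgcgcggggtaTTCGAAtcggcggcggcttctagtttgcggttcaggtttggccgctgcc
HMMR (chr5:163460382-163460681, plus strand): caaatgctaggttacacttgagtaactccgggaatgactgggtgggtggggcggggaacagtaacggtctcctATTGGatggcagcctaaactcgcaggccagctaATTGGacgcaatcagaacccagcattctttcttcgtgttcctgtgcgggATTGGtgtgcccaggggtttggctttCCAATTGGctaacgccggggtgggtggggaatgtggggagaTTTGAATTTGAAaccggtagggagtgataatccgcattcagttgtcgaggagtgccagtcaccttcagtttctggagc
CENPF (chr1:214602945-214603244, plus strand): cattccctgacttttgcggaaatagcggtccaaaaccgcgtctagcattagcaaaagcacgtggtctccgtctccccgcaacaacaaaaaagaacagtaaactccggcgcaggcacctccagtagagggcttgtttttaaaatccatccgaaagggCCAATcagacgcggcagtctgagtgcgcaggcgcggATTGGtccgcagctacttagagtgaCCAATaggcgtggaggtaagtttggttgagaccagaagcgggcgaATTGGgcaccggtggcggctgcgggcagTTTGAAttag

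ASPM carries 1 CHR match and 4 CCAAT matches in this window, BUB1 has 1 and 2, CENPF 1 and 4, and HMMR 2 adjoining CHR matches beside 5 CCAAT matches, of which 2 on opposite strands share letters. Among 55 counted mitotic genes with a promoter in the table, 39 (70.9%) held a CHR match, against 16.6% of all 27305 promoters and 12.1% of the 3600 of counted genes. S phase genes held one in 2 of 24 promoters (8.33%). CCAAT stood in 69.1% of the mitotic and 66.7% of the S phase promoters, against 35.7% of all. The E2F letters were in 1 of 55 mitotic and 13 of 24 S phase promoters, against 2.31% of all. Within the mitotic list, a CHR match was found in 31 of 42 promoters of genes at least 2-fold higher and in 8 of 13 of those within 2-fold. A match is a run of letters and not evidence of binding.

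Some genes of epidermal differentiation were also high. Of 35 measured genes of the cornified layer only 7 were counted. Among these 4 were at least 2-fold higher and 1 lower. All 4 higher members reached 5 on the array labelled mutant PIK3CA alone, so the filter fixed their direction and their share is not read against the background. Over all 35 without the filter 9 were higher and 1 lower, beside 2.61% and 1.93% of all measured genes, and the median was 0.25. CASP14, a protease of the terminally differentiating epidermis, read 5.40 on the array labelled mutant PIK3CA, 3.80 with both, 2.94 with Her2 and 1.05 with LacZ. SCEL, the envelope precursor sciellin, read 5.06 with mutant PIK3CA, 2.94 with both, 3.32 with Her2 and 1.41 with LacZ. CSTA, a cystatin of the cornified envelope, read 5.80 with mutant PIK3CA, 4.64 with both, 4.27 with Her2 and 4.15 with LacZ. The array labelled mutant PIK3CA was the highest of the 4 for each of these. CST6, another cystatin, went the other way, with a difference of -1.27. Below the filter, and named after their values were seen, LCE3D read 4.56 with mutant PIK3CA and 1.20 with LacZ and SPRR1B 4.42 with mutant PIK3CA and 1.12 with LacZ, both encoding envelope proteins. The late markers LORICRIN and FLG were below 2 on both arrays.

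Counted genes of the basal epithelial list lay mostly above LacZ. Of 9 counted basal genes 3 were at least 2-fold higher and 0 lower, beside backgrounds of 7.07% and 4.08%, with a median of 0.87. LAMB3, the beta chain of laminin-332, read 10.15 on the array labelled mutant PIK3CA, 6.94 with both, 8.19 with Her2 and 8.61 with LacZ. ITGA6, the alpha integrin of hemidesmosomes, read 9.84 with mutant PIK3CA, 8.28 with both, 8.68 with Her2 and 8.59 with LacZ. SFN, the epithelial 14-3-3 protein stratifin, read 10.40 with mutant PIK3CA, 9.24 with both, 8.67 with Her2 and 9.30 with LacZ. ITGB4, the partner of ITGA6, did not share this and read 9.51 on both arrays, and the cadherin CDH3 differed by -0.31. ITGA2, a collagen receptor subunit, read 7.33 with mutant PIK3CA, 4.92 with both, 6.05 with Her2 and 5.49 with LacZ. It belongs to an integrin and laminin list with 15 counted members on both sides of 0. Of these, 3 were at least 2-fold higher and 0 lower, beside the same backgrounds, and the median was 0.20.

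The 8 counted desmosome genes had a median difference of 0.68, with 6 of them at least 1.5-fold higher, beside 18.6% of all counted genes (13.5% were as much lower), and none past 2-fold. The desmosomal cadherins DSC3, DSC2 and DSG3 differed by 0.89, 0.83 and 0.82, and desmoplakin, DSP, by 0.74. Periplakin, PPL, was the 1 member below 0 (-0.52). Genes of adherens and tight junctions differed little from LacZ. Of 22 counted, 0 were at least 2-fold higher, where 7.07% of all counted genes were, and 1 was lower, near the background of 4.08%. The lower one was LSR, a tricellular junction protein, at 6.94 with mutant PIK3CA and 8.05 with LacZ. The median of the 22 was -0.23. Against the same LacZ array it was -2.64 on the array labelled with both and -0.97 on the array labelled Her2.

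**Figure D4:**
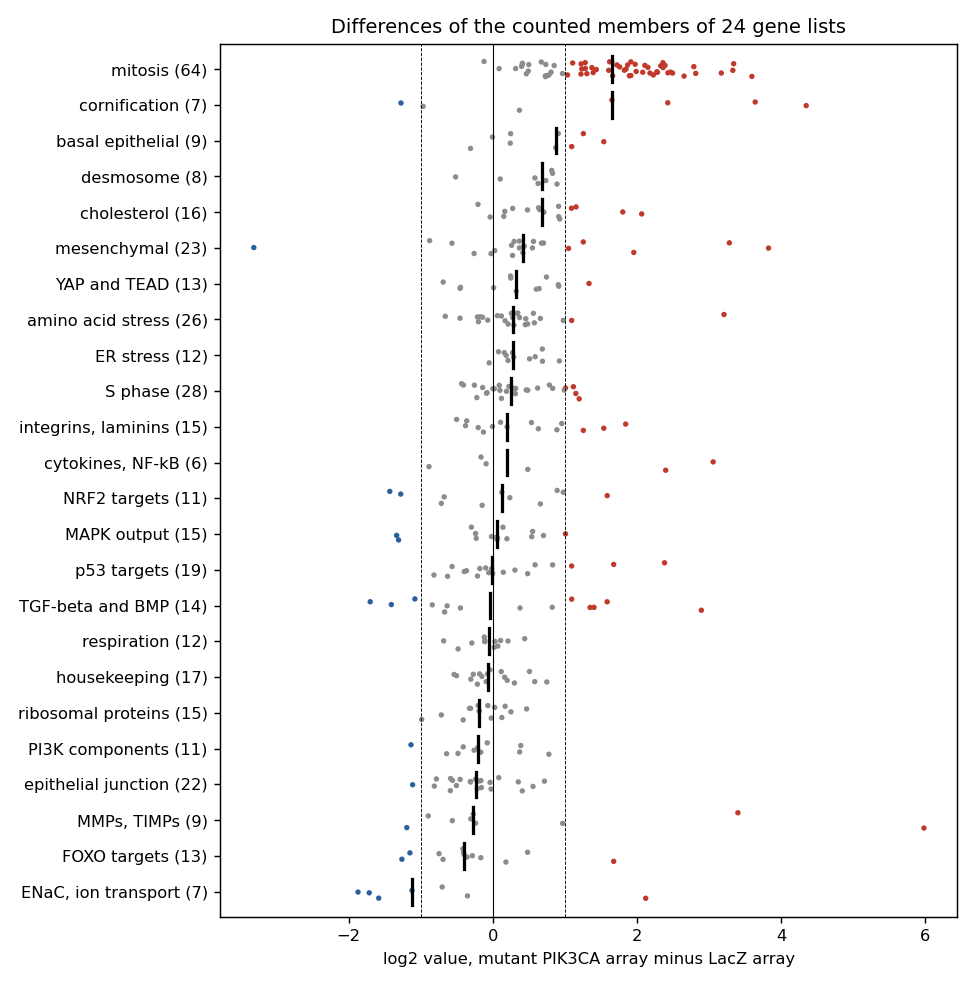
Difference in log2 level, array labelled mutant PIK3CA minus LacZ array (horizontal axis), of each counted member of 24 gene lists, with the number counted in brackets. Black bars are medians, dashed lines mark 2-fold, and red and blue points lie beyond them. Mitosis has the highest median (1.66), cornification comes next at 1.65 among 7 counted members (0.25 over all 35 measured), and the ENaC and ion transport list the lowest (-1.12).

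Counted ion transport genes and kallikreins were mainly lower. Of 7 counted genes of the epithelial sodium channel and ion transport list, 4 were at least 2-fold lower and 1 higher, where 4.08% and 7.07% of all counted genes were, with a median of -1.12. SCNN1B, the beta subunit of the channel, read 6.87 on the array labelled mutant PIK3CA, 4.80 with both, 7.40 with Her2 and 8.58 with LacZ. Its gamma subunit gene SCNN1G read 6.80 with mutant PIK3CA, 4.61 with both, 7.66 with Her2 and 7.92 with LacZ. The alpha subunit gene SCNN1A differed by -0.70. HSD11B2, which inactivates cortisol in mineralocorticoid target cells, differed by -1.58 and the potassium channel KCNK5 by -1.87. ANO1 was the 1 higher member. ANO1 reached 5 on the array labelled mutant PIK3CA alone and HSD11B2 on the LacZ array alone. Without the filter 2 of the 19 measured members were higher, 4 lower, and the median was 0.10. Of the 4 counted kallikreins, KLK6 and KLK10 (-1.28), a serine protease of the same cluster, were at least 2-fold lower, and KLK5 and KLK7, the desquamation proteases, differed by -0.68 and -0.33.

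Secreted signals differed gene by gene. Of 14 counted genes of TGF-beta and BMP signalling, 5 were at least 2-fold higher and 3 lower, against shares of 7.07% and 4.08% among all counted genes, and the median was -0.03. BMP6 and BHLHE40 reached 5 on the array labelled mutant PIK3CA alone. The ligands BMP6, INHBA (the activin A subunit) and BMP2 were higher, and so was BAMBI, a decoy receptor, and BHLHE40, a transcriptional repressor. INHBA read 6.81 on the array labelled mutant PIK3CA, 3.55 with both, 5.21 with Her2 and 5.22 with LacZ. BAMBI read 7.83 with mutant PIK3CA, 4.55 with both, 7.06 with Her2 and 6.42 with LacZ. For both genes the array labelled mutant PIK3CA was the highest and the array labelled with both the lowest. GDF15, a stress-induced ligand, read 5.14 with mutant PIK3CA, 5.23 with both, 6.72 with Her2 and 6.84 with LacZ. TGFB1 differed by -1.41 and ID1, a target of BMP signalling, by -1.08.

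Inflammatory genes lay at or above the LacZ values where they differed by 2-fold. Of 39 measured cytokine and NF-kB genes 6 were counted, with 2 at least 2-fold higher and 0 lower (background 7.07% and 4.08%), and without the filter 7 of 39 were higher and 0 lower (background 2.61% and 1.93%). TNFAIP3, a feedback inhibitor of NF-kB, read 6.03 on the array labelled mutant PIK3CA, 4.83 with both, 3.47 with Her2 and 2.97 with LacZ, and was counted through the first of these alone. The cytokine IL1A read 7.08 with mutant PIK3CA, 5.73 with both, 5.65 with Her2 and 4.68 with LacZ. NFKBIA, another feedback inhibitor, was about level on the 4 arrays, from 7.19 on the array labelled mutant PIK3CA to 7.35 on the LacZ array. Below the filter NFKBIZ, CXCL8, CXCL1, LIF and PTGS2, named after their values were seen, differed by 2.02, 1.77, 1.67, 1.32 and 1.11, and all read under 5 on both arrays.

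Of 4 counted Notch genes, JAG1, a ligand, read 8.11 on the array labelled mutant PIK3CA, 6.22 with both, 6.67 with Her2 and 7.03 with LacZ. NOTCH2 differed by -0.07 and NOTCH1 by -0.26, so that the receptors did not follow HES1. The matrix and mesenchymal list had 23 counted members, of which 5 lay 2-fold or more above LacZ and 1, EMP3, as far below, with a median of 0.42. The 1 lower member is about what the background of 4.08% gives, and 7.07% is the background for the higher ones. Besides POSTN and CCN1 the higher ones were LTBP1, which binds latent TGF-beta (1.96), TGFBI, an adhesion protein of the matrix (1.26), and CCN2, a matricellular relative of CCN1 (1.05). The transcription factor SNAI2 read 9.74 with mutant PIK3CA and 9.32 with LacZ and fibronectin, FN1, read 9.09 with mutant PIK3CA and 8.54 with LacZ. Among 9 counted metalloproteinases and inhibitors, MMP1 and TIMP3 were higher and MMP2, a gelatinase, was lower at -1.19, numbers too small to set against the background. A second MMP2 probe set read 0.58 with mutant PIK3CA and 0.50 with LacZ, a difference of 0.08 near the low end of the scale. It gives no check on the direction, which stays uncertain.

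Of 11 counted components of the PI3K and mTOR pathway, 0 were at least 2-fold higher and 1 was lower, the adaptor IRS1, at 3.72 with mutant PIK3CA and 4.86 with LacZ. The median was -0.21, and these counts are near the background of 7.07% and 4.08%. The regulatory subunit PIK3R1 read 8.06 with mutant PIK3CA and 8.13 with LacZ, and EIF4EBP1, a translational repressor controlled by mTOR, read 8.28 with mutant PIK3CA and 7.89 with LacZ. Of 13 counted FOXO target genes 1 was at least 2-fold higher, near the background of 7.07%, and 2 were lower beside a background of 4.08%, with a median of -0.40. GADD45A, a growth arrest gene, read 8.44 on the array labelled mutant PIK3CA, 7.88 with both, 7.27 with Her2 and 6.76 with LacZ. BCL6, a transcriptional repressor, read 4.64 with mutant PIK3CA, 5.97 with both, 5.70 with Her2 and 5.90 with LacZ, and FBXO32, a muscle ubiquitin ligase also found in other tissues, differed by -1.15. Of the 13, 10 lay below 0 and 3 above, where the median of all counted genes was 0.07. Without the filter the median of the measured FOXO targets was -0.28, with members on both sides of 0.

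Outputs of the MAPK pathway did not move one way. Of 15 counted, PHLDA1 was at least 2-fold higher (1.01), and DUSP6, the phosphatase that turns off ERK, and JUNB, an AP-1 subunit, were lower (-1.33 and -1.31), where the backgrounds are 7.07% higher and 4.08% lower. Among 19 counted p53 targets 3 were higher and 0 lower, beside the same backgrounds, with a median of -0.02. These were GADD45A, SFN and the kinase PLK2, which read 6.85 on the array labelled mutant PIK3CA, 5.18 with both, 4.88 with Her2 and 4.47 with LacZ. CDKN1A, the p53-induced cyclin kinase inhibitor, differed by -0.39 and MDM2 by 0.31.

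Among the metabolic lists, cholesterol synthesis and control had the highest median, 0.68. Of its 16 counted genes 4 were at least 2-fold higher and 0 lower, beside backgrounds of 7.07% and 4.08%. INSIG1, which holds the SREBP complex in the endoplasmic reticulum, read 7.68 on the array labelled mutant PIK3CA, 8.41 with both, 5.92 with Her2 and 5.88 with LacZ. STARD4, a cholesterol carrier, differed by 2.07, and the synthesis enzymes IDI1 and PMVK by 1.16 and 1.09. SQLE and DHCR7, 2 further enzymes of the route, differed by 0.28 and -0.04. Of 26 counted genes of the amino acid response 2 were higher, ATF3 and ALDH1L2, a mitochondrial folate enzyme (1.09), a share near the background of 7.07%, and the median was 0.29. ATF3 reached 5 on the array labelled mutant PIK3CA alone, so the filter fixed its direction. ATF4, the main transcription factor of that response, differed by 0.26 and ASNS, asparagine synthetase, by 0.46. SLC2A1, the main glucose transporter, read 8.07 with mutant PIK3CA and 6.74 with LacZ. It was the 1 gene at least 2-fold higher among 12 counted genes of glycolysis and hypoxia, near the background of 7.07%, and 0 were lower. The median of that list was 0.18, and -0.03 without the filter. Ribosomal proteins, respiratory chain genes and housekeeping genes had 0 calls either way among 15, 12 and 17 counted, with medians of -0.19, -0.05 and -0.07.

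Position on the chromosomes was examined after the values of the ERBB2 neighbours were seen. Chromosome 17 stood lowest of the nuclear chromosomes, its 303 counted genes having a median difference of -0.56. Of them 4 (1.32%) were at least 2-fold higher and 55 (18.2%) lower, beside 7.07% and 4.08% of all counted genes. Those 55 are among the 176 lower genes. The low values were not spread evenly, as a split at TMEM97, chosen after the values were seen, shows. The 75 counted genes before TMEM97 had a median of -0.17 with 2 higher and 2 lower. The 228 from TMEM97 onward had a median of -0.68 with 2 higher and 53 lower. Of these 228, 204 lay below 0, where the median of all counted genes was 0.07. HOXB9, DHX40, SCPEP1, GRN, GIT1 and DCAKD are among the genes of chromosome 17. Against the same LacZ array, the 228 genes had medians of -0.72 on the array labelled with both and -0.37 on the array labelled Her2, so the median lay below LacZ on all 3 arrays. Chromosomes 19 and 16 also leaned low on the array labelled mutant PIK3CA, with median differences of -0.26 and -0.21.

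Chromosome 1 stood in the other direction. Its 477 counted genes had a median of 0.41. Of them 74 (15.5%) were at least 2-fold higher and 1 (0.21%) lower, beside 7.07% and 4.08% of all counted genes. A split at ABL2 was also chosen after the values were seen. Of the 117 genes from ABL2 onward 34 were higher and 0 lower, with a median of 0.67. The 360 before ABL2 had a median of 0.36. The longest run of neighbouring counted genes all at least 2-fold higher held 6 genes, namely CDC73, ASPM, ZBTB41, NEK7, ZNF281 and KIF14. A run of 4 held RALGPS2, FAM20B, ABL2 and SOAT1. On chromosome 16 the neighbours SCNN1G, SCNN1B, COG7 and UBFD1 were all at least 2-fold lower, and on chromosome 17 a run of 5 was lower, LINC00673, COG1, CDC42EP4, NAT9 and SLC38A12. Without the genes of chromosome 17, higher genes made up 71.3% of the calls. The 8 counted mitochondrial genes all lay below 0, with a median of -0.37. The plot by chromosome shows the medians for the 3 comparisons, which share the LacZ array.

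**Figure D5:**
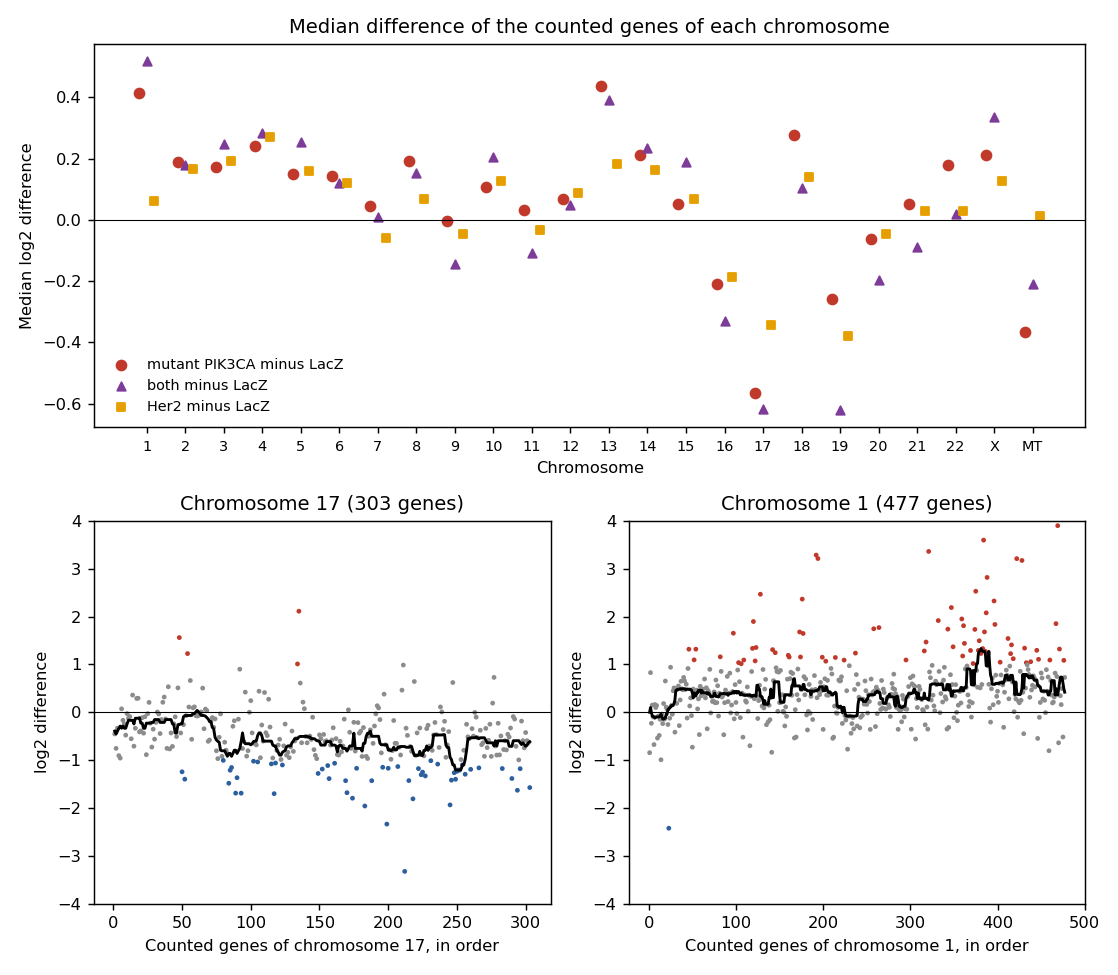
Top, median log2 difference from the LacZ array of the counted genes of each chromosome, for the arrays labelled mutant PIK3CA (circles), both (triangles) and Her2 (squares). Bottom, difference of each counted gene of chromosomes 17 and 1 in gene order for the array labelled mutant PIK3CA, with red and blue beyond 2-fold and a black running median of 15 genes; chromosome 17 has a median of -0.56 and chromosome 1 of 0.41.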

How the data were processed

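RNA of the 4 MCF10A lines was measured on 1 array each. The deposited log2 values per probe set were made by the authors with RMA in oligo, per the submitters' processing notes; the sources used here give neither versions nor the genome build of the array annotation. Values ran from -0.77 to 12.35 over 53617 probe sets, with array medians from 1.13 to 1.17. The platform annotation gave 1 symbol for 23871 probe sets, several for 1842 and none for 27904, and RefSeq (GRCh38.p14) updated 90 symbols and gave gene order. For a gene with several probe sets, the one with the highest mean was kept. ERBB2, PIK3CA and small RNAs were left out of counts. Differences were subtracted and counted at 2-fold with Python 3.11.15, pandas 2.3.3 and numpy 2.4.6, and limma 3.58.1 supplied other scalings. No test was possible with 1 array a label, and array number limits the precision. Members and lists were chosen with earlier results of these data known. Named genes were the 15 highest and 15 lowest differences, the 10 at each end among genes at 5 on both arrays, the 8 farthest apart each way, list members and markers. Of 4312 genes in simulated data, all 200 shifted by 2 log2 units were recovered, with 0 false calls.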

Additional observations from a re-analysis of the deposited data

Results flagged for a closer look

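For 7 genes named above, the difference between the array labelled mutant PIK3CA and the LacZ array ran opposite to that of the array labelled with both from the array labelled Her2, each by at least 2-fold; these pairs share no array, and whether they differ was not tested. BMP6 differed by 2.89 in the first pair and -1.73 in the second, ITGA2 by 1.84 and -1.13, INHBA by 1.59 and -1.66, LAMB3 by 1.54 and -1.25, BAMBI by 1.41 and -2.52, BMP2 by 1.10 and -1.68, and NQO1 by -1.28 and 1.90. Over all counted genes 22 had this pattern.

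Probe sets outside the counted genes were tallied the same way. Among small RNAs, 69 reached 5 on at least 1 array. Of these, 21 were at least 2-fold higher with mutant PIK3CA than with LacZ (30.4%) and 7 lower (10.1%). The shares of the counted genes were 7.07% and 4.08%. Some small RNAs, such as SNORA38B, reached 5 on the array labelled mutant PIK3CA alone, so the filter fixed their direction. How many entered in this way was not counted, and the shares are therefore not compared. SNORA38B, a small nucleolar RNA, read 8.04 with mutant PIK3CA, 2.64 with both, 2.21 with Her2 and 3.05 with LacZ. Of 1921 probe sets without a gene name here that reached 5, 143 were at least 2-fold higher (7.44%, near the share of the counted genes) and 202 lower (10.5%).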

How the results depend on the processing

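No paired analysis was possible because each label has 1 array and no result comes from a test. The main counts of 305 higher and 176 lower, with 63.4% higher, became 546, 404 and 57.5% without the level filter, 467, 342 and 57.7% with it at 3, 86 and 44 with it at 7, 104, 75 and 58.1% at 5 on both arrays, and 804, 582 and 58.0% at 1.5-fold. The share was 49.9% after quantile normalization and 52.6% after cyclic loess, and 71.3% without chromosome 17, an alternative chosen after seeing the data. Without the filter the median of the ion transport list was 0.10, with 12 low members added. After quantile normalization CDC6 read -0.018 relative to LacZ, and it was the only gene named here among those called to turn direction under either scaling. The mean of all probe sets and small RNAs kept left both counts within 1.5 times. Because of the ERBB2 values the array labelled Her2 was also set against LacZ in place of the array labelled mutant PIK3CA: 127 genes were higher, 111 lower and 53.4% of calls higher, and the mitosis median was -0.043. Genes that turned to negative differences there were TCN1 (-1.01), ANO1 (-1.08), MKI67 (-1.21), ANLN (-0.97), CDC6 (-0.71), SFN (-0.63), RRM2 (-0.47), A2ML1 (-0.46), LAMB3 (-0.42), MMP1 (-0.42), BHLHE40 (-0.36), JAG1 (-0.36), SLC2A1 (-0.36), EDN1 (-0.10), ABCC2 (-0.32), ATAD2 (-0.068), DTL (-0.065) and INHBA (-0.0032). Those that turned positive were ABCA6 (2.91), MMP2 (2.87), TMT1A (0.81), ARRDC3 (0.40), IRS1 (0.40), DHX40 (0.38), NQO1 (0.47), ID1 (0.32), SCPEP1 (0.29), LINC00673 (0.18), BLMH (0.16), PEG10 (0.14), GRN (0.014) and UIMC1 (0.0073). The cause of these changes was not tested. Levels near the low end of the scale carry little signal over background, and a difference there is the least certain.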

Other observations

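Some lists not described above had few counted members at least 2-fold apart, beside 7.07% of all counted genes higher and 4.08% lower. Of 15 counted tRNA synthetase genes, EPRS1, which charges both glutamate and proline tRNAs, was higher by 1.34 and 0 were lower. Among 6 counted genes of ERBB receptor ligands and feedback, EREG, the ligand epiregulin, was higher by 1.10, and the ligand gene EPGN read 8.61 with mutant PIK3CA and 7.67 with LacZ. The cyclin-dependent kinase genes CDK6 and CDK4 stood apart in sign, at 1.07 and -0.95. Of 11 counted NRF2 targets, ABCC2, an export pump, differed by 1.59, ABCC3, a related pump, by -1.43 and NQO1, a quinone reductase, by -1.28. Among 8 counted receptor kinases 0 differed by 2-fold, and MET read 8.28 with mutant PIK3CA and 8.43 with LacZ.

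Some small RNAs had high readings on both arrays whose labels name mutant PIK3CA, which also read highest for ERBB2. RNU4ATAC, an RNA of the minor spliceosome, read 7.45 with mutant PIK3CA, 7.12 with both, 4.29 with Her2 and 4.76 with LacZ. SNORD3C, a small nucleolar RNA, read 7.54 with mutant PIK3CA, 8.44 with both, 3.82 with Her2 and 4.55 with LacZ. High on 1 array alone, SNORD71 read 7.66 with mutant PIK3CA, 4.11 with both, 3.88 with Her2 and 4.79 with LacZ.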
